A study of Mus musculus with 12 samples.

Results

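p62 and 9 further autophagy cargo receptors were followed through the striatum of Huntington's disease (HD) model mice with and without p62. The 10 genes were Sqstm1, which encodes p62, Nbr1, Optn, Tax1bp1, Calcoco1, Tollip, Wdfy3, Bnip3, Bnip3l and Fundc1. They were chosen by function, by looking up each symbol in the array's annotation and keeping the probe set with the highest mean over all 12 arrays. Of the 10 genes, 9 were measured, among 19248 genes in all, and Optn was not analysed here. The question was whether other receptors changed when p62 was lost.

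Whole-transcript arrays were hybridised with RNA from the striatum of 12 mice aged 8 weeks, 3 in each of 4 groups. HD_p62KO mice carried the HD transgene and a p62 knockout (HD;p62-_-), and HD_p62WT mice carried the transgene with normal p62 (HD;p62+_+). NT_p62KO mice had the knockout without the transgene (NT;p62-_-), and NT_p62WT mice had neither (NT;p62+_+). The HD line with its promoter and repeat length, the knockout allele, the strain background, and any pooling of tissue were not stated in the sources used here, so each biological replicate was taken as 1 mouse. The p-values therefore set differences between groups against the spread between these 12 samples within their groups.

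Cargo receptors of selective autophagy carry a binding site for a cargo and a short motif that binds the ATG8 proteins (LC3 and GABARAP) on the growing autophagosome membrane. Soluble receptors such as p62, NBR1 and TAX1BP1 bind ubiquitin chains on misfolded protein, while BNIP3, BNIP3L and FUNDC1 sit in the outer mitochondrial membrane and mark mitochondria for removal. p62 gathers ubiquitinated protein into condensates together with NBR1, and is itself degraded with its cargo. In HD tissue p62 is found in inclusions of mutant huntingtin. Arrays measure mRNA, so none of the values below is a protein level or a rate of autophagy.

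The targeted gene followed the genotype labels in all 12 mice. On the log2 scale Sqstm1 was at 8.92, 9.13 and 9.02 in HD_p62KO mice and 11.75, 11.26 and 11.51 in HD_p62WT mice. Without the transgene it was at 8.44, 8.52 and 8.49 in NT_p62KO mice and 11.19, 11.35 and 11.24 in NT_p62WT mice. Knockout and normal mice did not overlap, with more than 2 log2 units between the highest knockout and the lowest normal value. The log2 difference was -2.48 ± 0.11 (SE) in HD mice (limma, adjusted p = 4.03e-07), which left 17.9% of the HD_p62WT signal. In non-transgenic mice it was -2.78 ± 0.11 (SE; limma, adjusted p = 1.05e-07), which left 14.6% of the NT_p62WT signal. Adjusted p-values are Benjamini-Hochberg values over all 19248 genes, with a threshold of 0.05. Where the probes lie relative to the deleted part of the gene was not analysed here, so the signal left in knockouts cannot be divided into transcript and background.

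**Figure D1:**
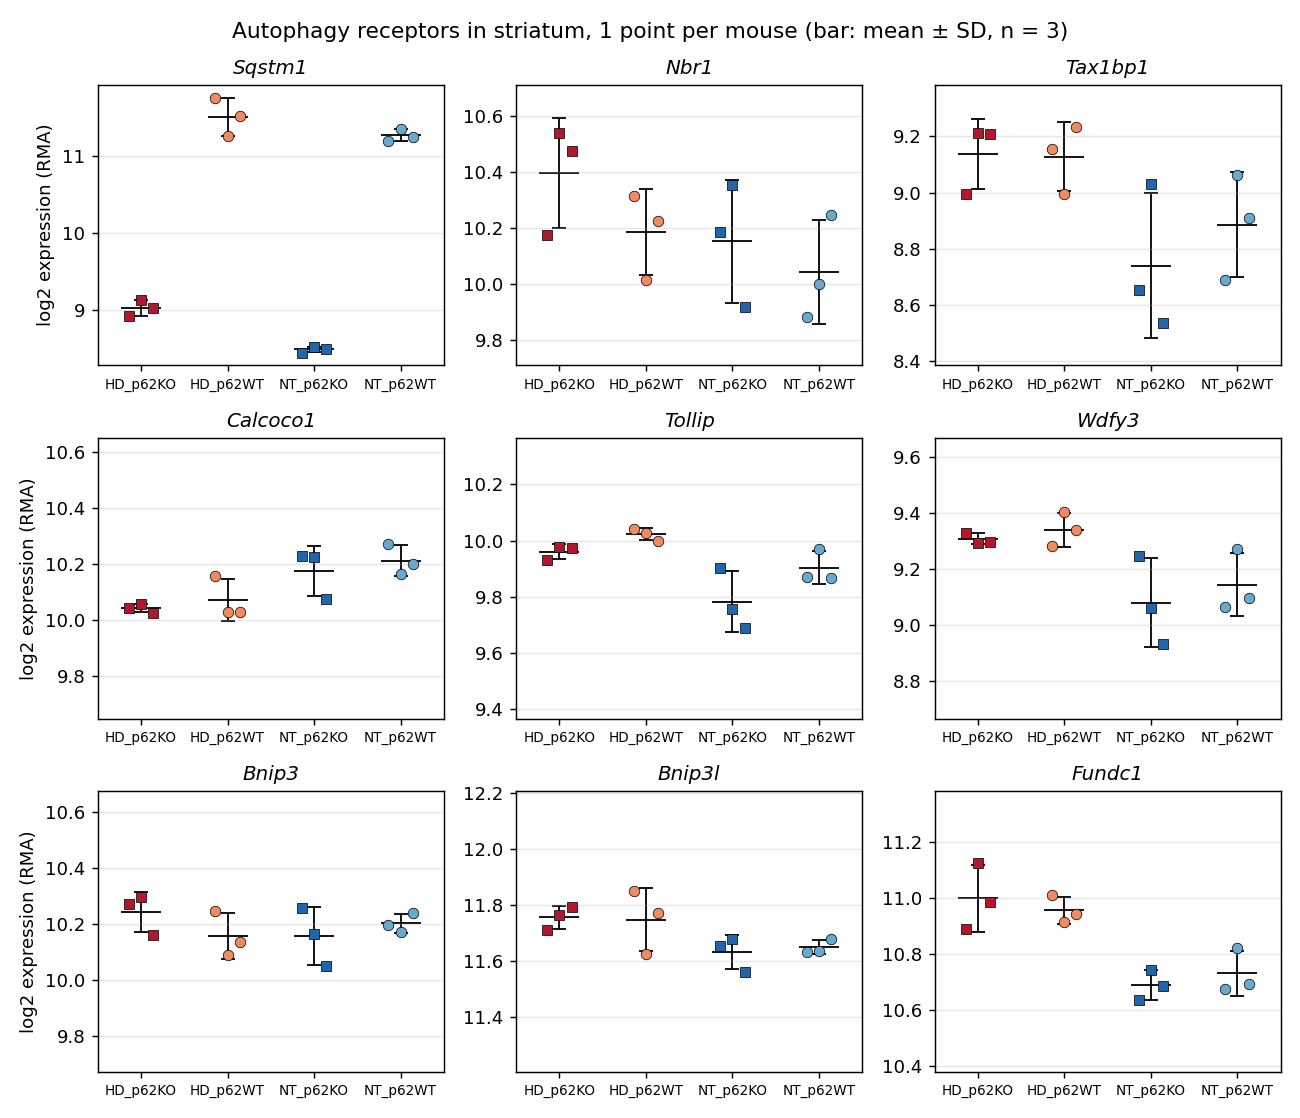
Log2 expression (vertical axis) of the 9 measured receptors in each of the 12 mice, by group, with the mean ± SD (n = 3) as a bar. Sqstm1 separates the knockouts (8.44 to 9.13) from mice with normal p62 (11.19 to 11.75), and among the other 8 genes Wdfy3 and Fundc1 lie higher in every HD mouse than in every non-transgenic mouse.

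The start of 4 receptor genes is shown because known regulators of the receptors bind short letter patterns there. Each of these 4 genes has a single window, which ends at the gene's annotated start. Of the 2 windows of Nbr1, 1 also ends at its annotated start and is not shown. RefSeq promoter sequences (GRCm38.p6, the 250 bases before the start) were found for 8 of the 10 genes, not for Wdfy3 and Bnip3l. Each was searched on both strands for the E-box CACGTG (bound by TFEB and others), the antioxidant response element core TGACNNNGC (bound by NRF2), the hypoxia response element core ACGTG (bound by HIF1, and contained in every CACGTG) and the GC box GGGCGG (bound by the SP family). Letters of any match are in capitals, and the rest is in lower case.
Sqstm1, chr11:50210821-50211070, strand -: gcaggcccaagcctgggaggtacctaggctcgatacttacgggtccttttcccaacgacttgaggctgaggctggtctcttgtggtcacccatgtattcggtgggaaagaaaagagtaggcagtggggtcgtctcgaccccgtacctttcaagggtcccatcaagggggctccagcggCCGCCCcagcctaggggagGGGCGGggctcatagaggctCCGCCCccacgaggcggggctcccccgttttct
Tollip, chr7:141902462-141902711, strand -: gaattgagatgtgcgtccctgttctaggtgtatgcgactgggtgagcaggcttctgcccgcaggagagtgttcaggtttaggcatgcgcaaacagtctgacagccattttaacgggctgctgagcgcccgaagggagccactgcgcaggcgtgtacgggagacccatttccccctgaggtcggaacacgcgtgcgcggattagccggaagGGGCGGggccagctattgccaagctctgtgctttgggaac
Calcoco1, chr15:102722179-102722428, strand -: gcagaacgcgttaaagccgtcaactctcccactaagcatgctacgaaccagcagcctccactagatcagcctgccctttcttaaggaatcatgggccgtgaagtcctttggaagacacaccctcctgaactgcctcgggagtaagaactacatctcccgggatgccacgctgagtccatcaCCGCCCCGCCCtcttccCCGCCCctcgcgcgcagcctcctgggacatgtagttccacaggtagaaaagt
Bnip3, chr7:138909507-138909756, strand -: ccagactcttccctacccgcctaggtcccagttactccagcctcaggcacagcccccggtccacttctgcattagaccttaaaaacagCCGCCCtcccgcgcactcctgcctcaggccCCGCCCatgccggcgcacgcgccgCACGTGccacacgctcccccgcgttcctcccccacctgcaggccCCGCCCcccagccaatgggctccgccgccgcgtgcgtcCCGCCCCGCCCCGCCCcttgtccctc

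Sqstm1's window held 3 GC boxes, beginning 72, 53 and 33 bases before the start, and no antioxidant response element core, E-box or hypoxia core. Calcoco1 held 3 GC boxes, of which the first 2 overlap by a base, Tollip held 1, and Bnip3 held an E-box beginning 108 bases before the start, which includes the hypoxia core, and 6 GC boxes. GC content was 63.2% for Sqstm1, 60.0% for Tollip, 57.6% for Calcoco1 and 72.4% for Bnip3, beside a median of 52.4% over all windows. Among 32851 windows of all genes, 6.02% held the E-box, 10.2% the antioxidant core, 16.6% the hypoxia core and 32.7% the GC box. Of the 8 genes with a window, 1 held the E-box, 1 the antioxidant core, 3 the hypoxia core and 5 the GC box. A gene was counted if any of its windows matched, and Nbr1 and Tax1bp1 had 2 windows each. These counts per gene are therefore not on the same footing as the percentages per window. The antioxidant match was in 1 of the 2 Tax1bp1 windows, and the hypoxia matches were in Bnip3 and in 1 window each of Nbr1 and Tax1bp1. A match is a letter pattern in 250 bases, and a missing match says only that these letters are not in this window.

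None of the other 8 receptors passed the test for p62 loss. In HD_p62KO against HD_p62WT mice the limma fit called 0 of 8 at the adjusted threshold and 0 of 8 at an unadjusted p below 0.05. In NT_p62KO against NT_p62WT mice the counts were also 0 and 0, and likewise for the mean of both contrasts, which sets 6 mice against 6. Over all genes 0.0052% were called in HD mice and 0.0052% in non-transgenic mice, which is Sqstm1 alone, and 0.0104% for the mean. Unadjusted p lay below 0.05 for 555 genes in HD mice (2.88%), 639 in non-transgenic mice (3.32%) and 518 for the mean (2.69%). Adjusted p for the 8 receptors was 1.00 in each contrast.

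The 95% intervals of the mean p62 difference ran from -0.27 to 0.37 over the 8 genes, so that the farthest bound was a 1.29-fold change. In HD mice alone the farthest bound was 1.42-fold, and in non-transgenic mice 1.35-fold. These intervals are for single genes and are not adjusted over the 8. The median log2 difference of the 8 was 0.01 in HD mice and -0.04 in non-transgenic mice, beside -0.0022 and -0.0063 over all genes.

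NBR1 is the receptor closest to p62 in domain layout, with its own ubiquitin- and ATG8-binding sites, and binds p62 directly. Nbr1 was at 10.17, 10.54 and 10.48 in HD_p62KO mice and at 10.31, 10.01 and 10.22 in HD_p62WT mice. It was at 10.18, 10.35 and 9.92 in NT_p62KO mice and at 9.88, 9.9999 and 10.24 in NT_p62WT mice. The groups overlapped in both pairs. The mean p62 difference was 0.16 (95% interval -0.05 to 0.37, limma unadjusted p = 0.121), the largest in size of the 8, and its upper bound is the 1.29-fold change given above.

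TAX1BP1 joins p62 and NBR1 condensates and recruits the autophagy initiation complex to them. Tax1bp1 read 8.99, 9.21 and 9.21 in HD_p62KO mice, against 9.16, 8.99 and 9.23 in HD_p62WT mice. Without the transgene it read 8.65, 9.03 and 8.53 in NT_p62KO mice, against 8.69, 9.06 and 8.91 in NT_p62WT mice. Its p62 difference was 0.01 in HD mice (interval -0.28 to 0.30) and -0.15 in non-transgenic mice (-0.43 to 0.14), with overlap in both.

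CALCOCO1 is known from human cells as a receptor for the endoplasmic reticulum. Calcoco1 read 10.05, 10.06 and 10.03 in HD_p62KO mice, against 10.16, 10.03 and 10.03 in HD_p62WT mice. In the non-transgenic groups it read 10.23, 10.23 and 10.07 in NT_p62KO mice, against 10.27, 10.17 and 10.20 in NT_p62WT mice. The p62 difference was -0.03 in HD mice (interval -0.18 to 0.12) and -0.04 in non-transgenic mice (-0.18 to 0.11), and the groups overlapped. Its SD within groups was between 0.015 and 0.088 (n = 3 each).

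TOLLIP binds ubiquitin through a CUE domain and has been linked to the clearance of polyglutamine proteins. Tollip read 9.93, 9.98 and 9.97 in HD_p62KO mice, against 10.04, 10.03 and 9.9999 in HD_p62WT mice. It was the 1 receptor of 8 whose HD groups did not overlap, where 7.38% of all genes did not. In NT_p62KO mice it read 9.90, 9.76 and 9.69, against 9.87, 9.97 and 9.87 in NT_p62WT mice, which overlapped, as 0 of the 8 receptors stood apart there (7.87% of all genes). The mean p62 difference of Tollip was -0.09 (interval -0.20 to 0.01, limma unadjusted p = 0.0836).

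WDFY3, also called ALFY, is a large scaffold that binds p62 and phosphoinositides on autophagosome membranes and serves the removal of protein aggregates. Wdfy3 read 9.33, 9.30 and 9.30 in HD_p62KO mice, against 9.28, 9.40 and 9.34 in HD_p62WT mice. Its values were 9.25, 9.06 and 8.93 in NT_p62KO mice, against 9.07, 9.27 and 9.10 in NT_p62WT mice. Both pairs overlapped, with a mean p62 difference of -0.05 (interval -0.18 to 0.08).

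For the mitochondrial receptors the intervals also included 0. Bnip3, which in many cell types is induced by low oxygen through HIF1, read 10.27, 10.30 and 10.16 in HD_p62KO mice, against 10.25, 10.09 and 10.14 in HD_p62WT mice. It read 10.26, 10.16 and 10.05 in NT_p62KO mice, against 10.20, 10.17 and 10.24 in NT_p62WT mice. Bnip3l, which clears mitochondria from maturing red cells, read 11.71, 11.76 and 11.79 in HD_p62KO mice, against 11.85, 11.63 and 11.77 in HD_p62WT mice. The mean p62 differences were 0.02 for Bnip3 (interval -0.09 to 0.13) and -0.01 for Bnip3l (-0.11 to 0.10). Bnip3l read 11.65, 11.68 and 11.56 in NT_p62KO mice, against 11.63, 11.64 and 11.68 in NT_p62WT mice.

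Fundc1, whose ATG8-binding site is controlled by phosphorylation, read 10.89, 11.12 and 10.98 in HD_p62KO mice, against 11.01, 10.91 and 10.94 in HD_p62WT mice. In the non-transgenic groups its values were 10.64, 10.74 and 10.69 in NT_p62KO mice, against 10.68, 10.82 and 10.69 in NT_p62WT mice. The mean p62 difference was 0.00 (interval -0.12 to 0.12). Bnip3 and Bnip3l have 2 probe sets each, and the dimmer one of each was not called in any p62 contrast either, with differences of -0.06 for Bnip3 and 0.06 for Bnip3l in HD mice.

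**Figure D2:**
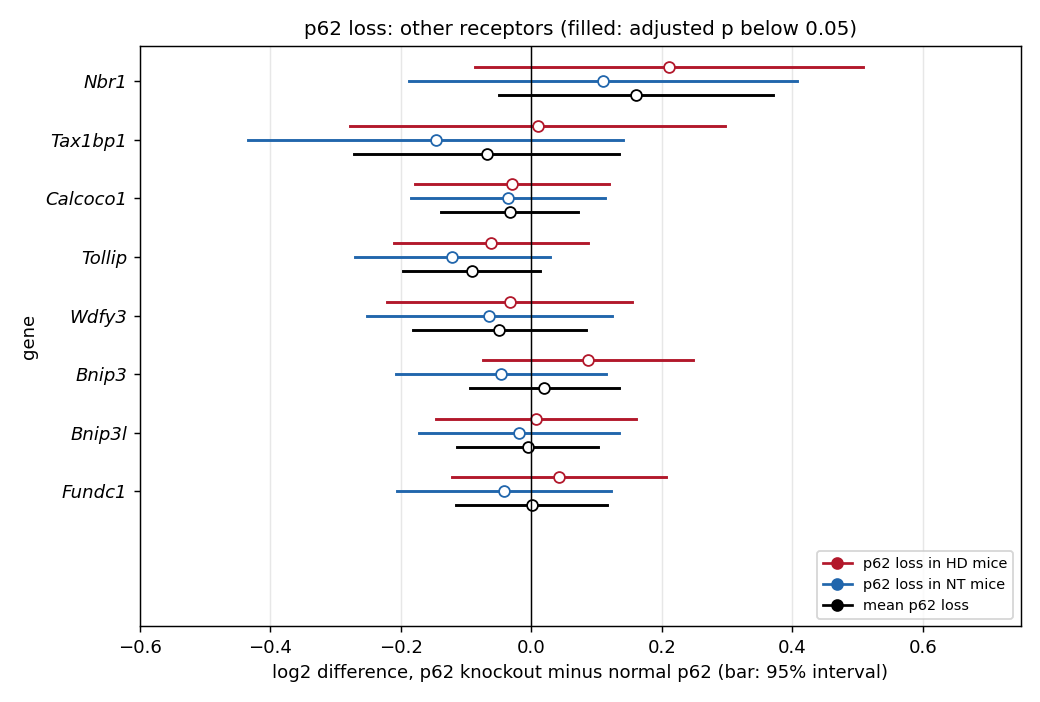
Log2 difference between knockout and normal p62 (horizontal axis, bars: 95% interval) of the other 8 receptors in HD mice, in non-transgenic mice and as the mean of both. Every interval includes 0, no difference passed the adjusted threshold, and the widest intervals belong to Nbr1 and Tax1bp1.

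In the contrast of HD and non-transgenic mice several receptors passed the test. For the mean HD difference (6 HD against 6 non-transgenic mice), 5 of the 8 other receptors were called, 4 higher and 1 lower, where 35% of all genes did (19.9% higher and 15% lower). Fundc1 rose by 0.27 ± 0.053 (SE; 1.20-fold, limma adjusted p = 0.00334) and Tax1bp1 by 0.32 ± 0.094 (1.25-fold, adjusted p = 0.0207). Wdfy3 rose by 0.21 ± 0.061 (adjusted p = 0.0197) and Tollip by 0.15 ± 0.048 (adjusted p = 0.0323). Calcoco1 fell, by -0.14 ± 0.048 (adjusted p = 0.0451). Nbr1 (0.19, adjusted p = 0.135), Bnip3l (0.11, adjusted p = 0.0979) and Bnip3 (0.02, adjusted p = 0.769) did not pass. The median over the 8 was 0.17, beside -0.02 over all genes.

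Sqstm1 itself was higher in HD mice, by 0.39 ± 0.076 for the mean HD difference (1.31-fold, limma adjusted p = 0.00293). That mean includes the signal left in knockouts, which cannot be divided into transcript and background. It is therefore not a fold change of intact Sqstm1 mRNA alone. In knockouts the difference was 0.54 ± 0.11 (1.45-fold, adjusted p = 0.0076, range over all alternatives 0.00121 to 0.0925), and the HD_p62KO values (8.92 to 9.13) lay above all NT_p62KO values (8.44 to 8.52). In mice with normal p62 it was 0.24 ± 0.11 (adjusted p = 0.179), with HD_p62WT values of 11.26 to 11.75 overlapping NT_p62WT values of 11.19 to 11.35. Without HD_p62WT replicate 2, whose Sqstm1 value of 11.26 was the lowest of its group, this became 0.37 (adjusted p = 0.0395, range over all alternatives 0.0272 to 0.542). In order of level, HD_p62WT stood first, overlapping NT_p62WT, followed by HD_p62KO and then NT_p62KO, each apart from its neighbours.

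Set out by p62 status, the transgene effect passed the test for Tax1bp1 and Fundc1 in mice without p62 and for 0 of 8 receptors in mice with p62. Without p62, HD_p62KO against NT_p62KO, Tax1bp1 differed by 0.40 ± 0.13 (adjusted p = 0.0494) and Fundc1 by 0.31 ± 0.075 (adjusted p = 0.0165), where 21.7% of all genes were called, 13.3% higher and 8.34% lower. With p62, HD_p62WT against NT_p62WT, they differed by 0.24 ± 0.13 (adjusted p = 0.274) and 0.22 ± 0.075 (adjusted p = 0.0892), where 7.1% of all genes were called, 3.85% higher and 3.24% lower. At an unadjusted p below 0.05 limma gave 4 of the 8 receptors without p62, beside 38.8% of all genes, and 2 of the 8 with p62, beside 25.4% of all genes. A receptor that passes on one side of the cross and not on the other is not thereby shown to differ between them, and the difference itself was fitted.

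That difference, the p62 effect in HD mice minus the p62 effect in non-transgenic mice, passed for 0 of the 9 receptors and 0% of all genes. Unadjusted p below 0.05 was seen for 0 of the other 8 receptors and 665 genes (3.45%). For Sqstm1 it was 0.30 ± 0.15 (unadjusted p = 0.0749, adjusted p = 0.991). For the other 8 it was positive in each, between 0.01 and 0.16, with a median of 0.07 beside 0.0041 over all genes. The 8 values share the mice of all 4 groups, so their signs are not independent. NT_p62KO replicate 3 had the lowest value of all 12 mice for 5 of the 8 receptors (Tax1bp1, Tollip, Wdfy3, Bnip3 and Bnip3l). The part of single mice in the shared sign was not tested.

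**Figure D3:**
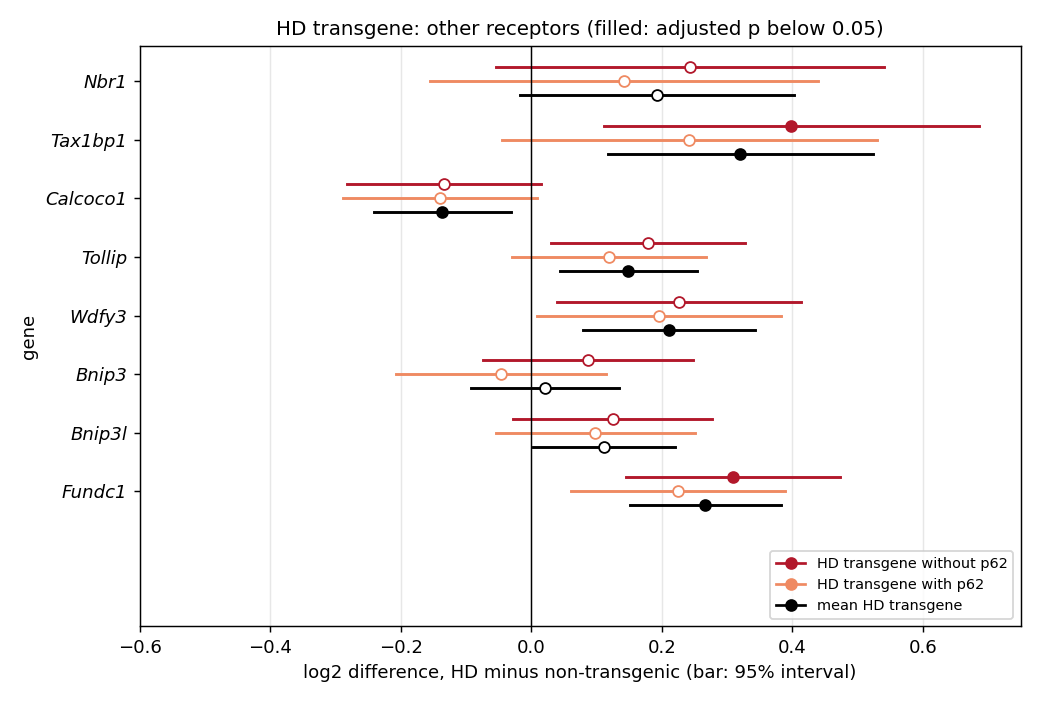
Log2 difference between HD and non-transgenic mice (horizontal axis, bars: 95% interval) of the other 8 receptors, in mice without p62, in mice with p62 and as the mean of both, with filled points at an adjusted p below 0.05. Fundc1 and Tax1bp1 lie farthest to the right, and the values without and with p62 have overlapping intervals for every gene. Calcoco1 is the 1 gene that is negative in every contrast, while Bnip3 is negative in mice with p62 only (-0.05).

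Overlap between groups gave an order that differed in part. Tax1bp1, with the largest mean HD difference of the 8, overlapped in every HD contrast. It spanned 8.99 to 9.21 in HD_p62KO mice and 8.53 to 9.03 in NT_p62KO mice. Wdfy3 and Fundc1 separated all 6 HD mice from all 6 non-transgenic mice, both higher in HD mice, where 16.2% of all genes separated and 10.5% were higher. Fundc1 spanned 10.89 to 11.12 in HD mice and 10.64 to 10.82 in non-transgenic mice. Wdfy3 spanned 9.28 to 9.40 in HD mice and 8.93 to 9.27 in non-transgenic mice. Without p62, 5 of 8 receptors did not overlap between HD_p62KO and NT_p62KO mice (39.4% of all genes, and 22.3% higher), with Tollip, Wdfy3, Bnip3l and Fundc1 higher and Calcoco1 lower. With p62, Tollip, Wdfy3 and Fundc1 were higher and Calcoco1 lower without overlap (4 of 8, against 33.1% of all genes, and 17.8% higher).

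Several of these calls were lost when 1 mouse was left out. The mean HD call of Fundc1 was kept in 24 of 24 alternatives, with adjusted p between 0.000401 and 0.0483. Tax1bp1 lost its mean HD call when HD_p62WT replicate 3 was left out (adjusted p = 0.0522) or NT_p62WT replicate 1 (adjusted p = 0.0515), with a range over all alternatives of 0.002 to 0.405. Calcoco1 lost its call without any 1 of 10 of the 12 mice, all but HD_p62WT replicate 1 and NT_p62KO replicate 3, with adjusted p of 0.0508 to 0.102 there. Tollip lost its call without any 1 of 8 mice (HD_p62KO 2 or 3, HD_p62WT 1 or 3, NT_p62KO 2 or 3, NT_p62WT 1 or 3), with adjusted p of 0.0551 to 0.0723. Among mice without p62, Fundc1 lost its call without HD_p62KO replicate 2 (adjusted p = 0.0735, range over all alternatives 0.00283 to 0.148). Tax1bp1 kept its call there in 11 of 25 alternatives and lost it without any 1 of 8 mice (HD_p62KO 2 or 3, each HD_p62WT mouse, NT_p62KO 1 or 3, NT_p62WT 3, with adjusted p 0.0501 to 0.184). Calls were also gained: without NT_p62KO replicate 1, Tollip (adjusted p = 0.0422) and Wdfy3 (adjusted p = 0.0338) passed among mice without p62, and without HD_p62WT replicate 2, Bnip3l passed for the mean HD difference (adjusted p = 0.0329).

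The spread of an array's values moved with the HD groups. The SD over all genes on an array was 1.64 to 1.73 in HD mice and 1.58 to 1.67 in non-transgenic mice, lowest in NT_p62KO replicate 3. With that SD as a covariate, 2 of the 8 other receptors passed for the mean HD difference, Fundc1 (0.20 ± 0.059, adjusted p = 0.0483) and Calcoco1 (-0.19 ± 0.053, adjusted p = 0.0386). Tax1bp1 was at 0.13 ± 0.089 (adjusted p = 0.405), Wdfy3 at 0.18 (adjusted p = 0.165) and Tollip at 0.10 (adjusted p = 0.256), while Nbr1 was at -0.03. Sqstm1 was then at 0.26 ± 0.082 (adjusted p = 0.0606). Over all genes 2541 (13.2%) were called in that fit, against 6728 without the covariate. In mice without p62 the covariate left 0 of 8 called, beside 843 genes (4.38%) of all, with Tax1bp1 at 0.14 (adjusted p = 0.562) and Fundc1 at 0.22 (adjusted p = 0.148). The Sqstm1 difference among knockouts also lost its call there, at 0.37 ± 0.11 (adjusted p = 0.0925). Array SD and transgene move together, so their parts in these results cannot be told apart.

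**Figure D4:**
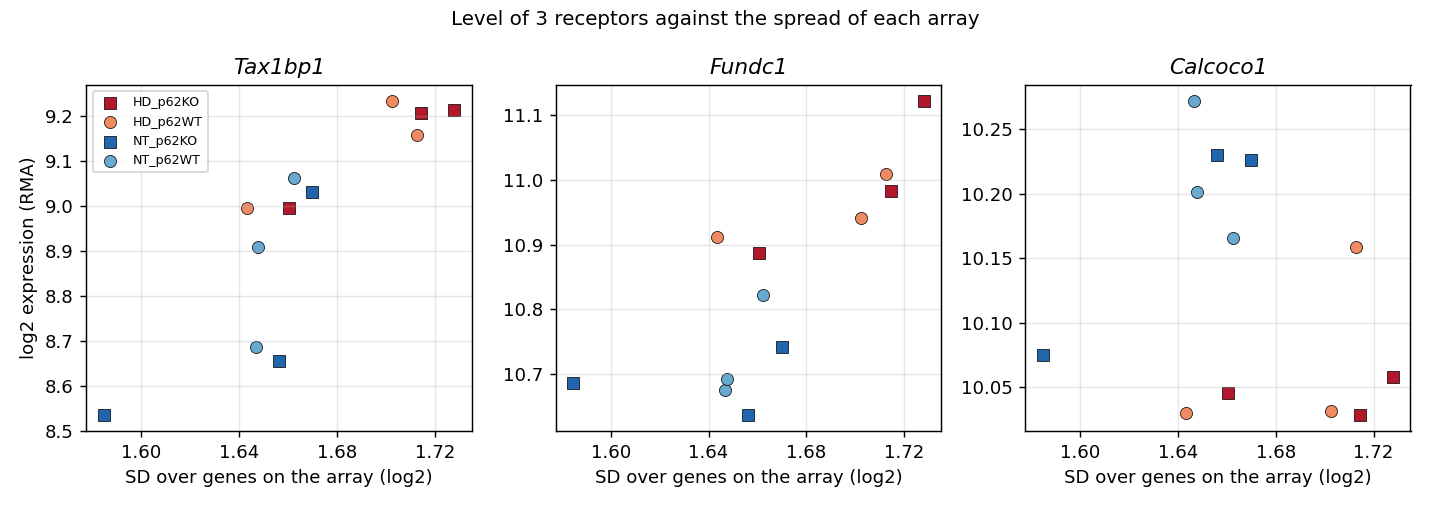
Log2 expression (vertical axis) of Tax1bp1, Fundc1 and Calcoco1 against the SD over genes on each of the 12 arrays (horizontal axis, log2). In each group the array of smallest SD has the lowest Tax1bp1 value, Fundc1 keeps HD above non-transgenic mice also where the spread is alike, and the Calcoco1 value of the NT_p62KO mouse of smallest spread lies near the HD mice.

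Without the 3 arrays that lie farthest below their group's mean SD (HD_p62KO replicate 1, HD_p62WT replicate 2 and NT_p62KO replicate 3, a choice made after seeing the data), 5 of the 8 receptors passed for the mean HD difference, beside 39.8% of all genes, but not the same 5. Fundc1 (0.30, adjusted p = 0.00501), Tax1bp1 (0.34, adjusted p = 0.0252) and Calcoco1 (-0.15, adjusted p = 0.0373) kept their calls. Nbr1 (0.23, adjusted p = 0.0474) and Bnip3l (0.14, adjusted p = 0.0357) gained one, and Wdfy3 (0.15, adjusted p = 0.0808) and Tollip (0.13, adjusted p = 0.0669) lost theirs. The same fit left 0 of 8 receptors called in each p62 contrast and Sqstm1 at 0.48 for the mean HD difference (adjusted p = 0.00171).

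**Figure D5:**
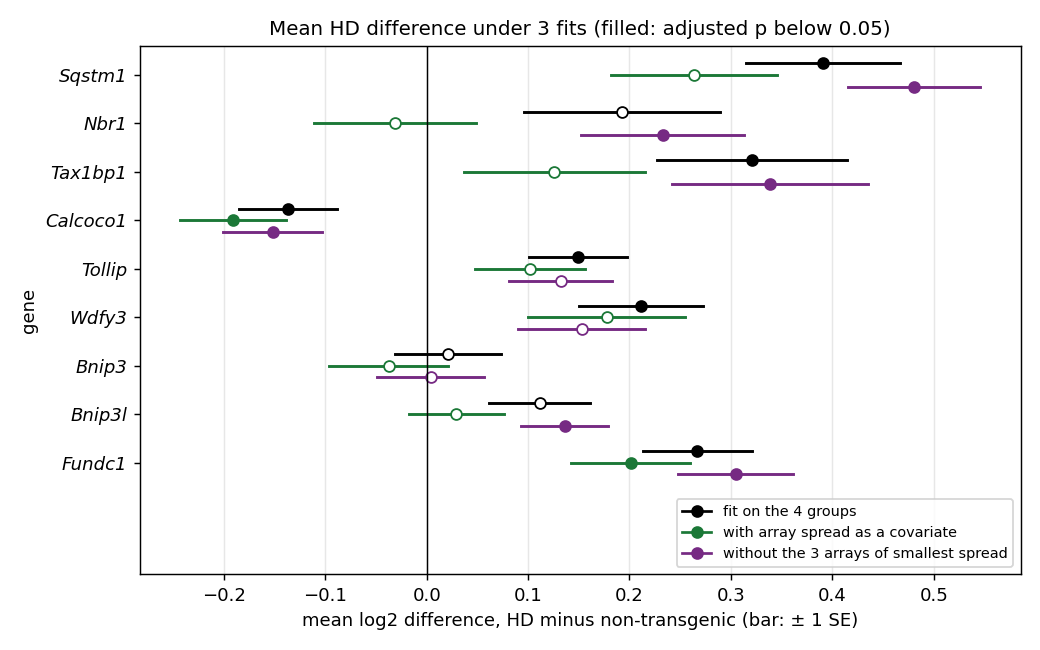
Mean log2 difference between HD and non-transgenic mice (horizontal axis, bars: ± 1 SE) of the 9 receptors in the fit on 4 groups, with array spread as a covariate and without the 3 arrays of smallest spread, with filled points at an adjusted p below 0.05. Fundc1 and Calcoco1 are filled in all 3 fits, while Tax1bp1 lies closer to 0 with the covariate (0.13) than in the fit on 4 groups (0.32).

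Markers of some cell types moved with the transgene as well, where 35% of all genes were called for the mean HD difference (19.9% higher and 15% lower). In bulk tissue, fewer cells of a type and less RNA per cell cannot be told apart. Of 8 measured markers of medium spiny neurons, the main striatal cell type, 7 fell and 1 (Tac1) rose for the mean HD difference. Their mean was 10.71 to 10.80 in HD_p62KO mice, 10.87 to 10.90 in HD_p62WT mice, 11.47 to 11.65 in NT_p62KO mice and 11.37 to 11.57 in NT_p62WT mice. Of 7 oligodendrocyte markers 4 fell, of 8 astrocyte markers 2 fell, of 4 endothelial markers 1 fell, and of 7 microglial markers 0 passed. Of 4 cortical neuron markers 0 passed, but all were lower in HD mice, by -0.83 to -0.16 with a median of -0.58. Their mean was 7.28 to 7.68 in HD_p62WT mice, below the 7.83 to 8.64 of NT_p62WT mice. The knockout groups overlapped, at 6.84 to 8.16 in HD_p62KO and 7.15 to 8.66 in NT_p62KO mice. Choroid plexus markers, a sign of ventricle wall in the dissection, averaged 7.99 to 8.24 in NT_p62KO mice and 6.999 to 7.30 in NT_p62WT mice. In HD mice they averaged 6.93 to 8.94 in HD_p62KO and 6.91 to 8.16 in HD_p62WT mice, and 0 of 8 passed in either p62 contrast, while 1 of 8 rose for the mean HD difference. No marker is at 0 on these arrays, and the lowest marker value was 5.58. The part of cell makeup in the receptor results was not tested.

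The ATG8 proteins that the receptors bind were likewise not called for p62 loss, with 0 of 5 genes called in HD mice, in non-transgenic mice and for the mean. For the mean HD difference 3 of 5 rose, where 35% of all genes were called and 19.9% were higher. In mice without p62 and in mice with p62, 0 of 5 were called (21.7% and 7.1% of all genes). Gabarap rose by 0.23 ± 0.056 (adjusted p = 0.00933), Gabarapl1 by 0.16 ± 0.058 (adjusted p = 0.0434) and Gabarapl2 by 0.22 ± 0.078 (adjusted p = 0.0454). Map1lc3b, the gene of the most used LC3 marker of autophagosomes, differed by 0.04 ± 0.047 (adjusted p = 0.545). With equal array medians 1 of the 5 was called (36% of all genes), and with array spread as a covariate 0 of 5 (13.2% of all genes). With 1 mouse left out, 1 to 3 of the 5 were called, beside 4977 to 7542 of all genes.

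Of 20 further receptors of selective autophagy, 0 were called in any p62 contrast, with median differences of 0.00 in HD and -0.04 in non-transgenic mice. For the mean HD difference 7 rose and 3 fell, where 35% of all genes were called (19.9% higher and 15% lower). Their median was 0.07, beside -0.02 over all genes. Atl3, an atlastin of the endoplasmic reticulum, rose by 0.52 ± 0.068 (adjusted p = 0.000316). Ncoa4, the receptor for ferritin, rose by 0.40 ± 0.057 (adjusted p = 0.000582). Cbl, a ubiquitin ligase, rose by 0.33 ± 0.049 (adjusted p = 0.000692), and Yipf4, a Golgi membrane protein, by 0.26 ± 0.048 (adjusted p = 0.00207). Rtn3, a reticulon of the endoplasmic reticulum, differed by 0.07 ± 0.043 (adjusted p = 0.221). Without p62, 6 rose and 2 fell (21.7% of all genes were called), and with p62, 3 rose and 1 fell (7.1% of all genes). The count with p62 was 0 without HD_p62WT replicate 1 or 3 or NT_p62WT replicate 1 or 3. It was 7 higher and 3 lower without the 3 arrays of smallest spread. Array spread as a covariate left 6 higher and 1 lower for the mean HD difference, where 13.2% of all genes were called. Atl3 (0.37), Ncoa4 (0.28), Cbl (0.28) and Yipf4 (0.22) were among the 6.

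Of 12 measured genes that act on the receptors, 0 were called for p62 loss in any contrast. This includes Keap1 and Nfe2l2, the sensor and the transcription factor (NRF2) of a loop in which p62 binds KEAP1 and NRF2 raises Sqstm1 transcription. For the mean HD difference 7 of the 12 rose and 0 fell, where 35% of all genes were called (19.9% higher and 15% lower). The median of the 12 was 0.17, beside -0.02 over all genes. Nfe2l2 rose by 0.51 ± 0.073 (adjusted p = 0.000613) and Hif1a, the oxygen-regulated factor upstream of Bnip3, by 0.28 ± 0.057 (adjusted p = 0.0034). Ulk1, the kinase that starts autophagosome formation, rose by 0.19 ± 0.041 (adjusted p = 0.00539), and Rb1cc1, its partner FIP200, by 0.35 ± 0.092 (adjusted p = 0.0129). Pink1, the kinase that flags damaged mitochondria, differed by -0.04 ± 0.052 (adjusted p = 0.553). Without p62, 5 rose, where 13.3% of all genes did. With p62, 1 rose (Nfe2l2, 0.47 ± 0.10, adjusted p = 0.0226), where 3.85% of all genes did. This count was 0 with the replicate block, and also without HD_p62WT replicate 1 or 3 or NT_p62WT replicate 1 or 3. It was 5 with array weights. Calls over all genes with p62 ranged from 398 to 2040 with 1 mouse left out. With array spread as a covariate 2 of the 12 passed for the mean HD difference, beside 13.2% of all genes. They were Nfe2l2 (0.42, adjusted p = 0.0132) and Ulk1 (0.17, adjusted p = 0.0336).

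Likeness in pattern to Sqstm1 was ranked over the 12 arrays. The 5 genes with the highest Pearson r were Lyrm7 (0.923), Anxa6 (0.877), Nudt16l1 (0.853), Pcyox1l (0.850) and C2cd3 (0.837). Lyrm7 differed by -1.08 ± 0.11 for the mean p62 difference (limma, adjusted p = 0.00382), and was with Sqstm1 the only gene called there. It was not called in HD mice alone (-1.12, limma adjusted p = 0.0653) or in non-transgenic mice alone (-1.04, adjusted p = 0.136). Where Lyrm7 and the other genes lie relative to Sqstm1 was not analysed here. Anxa6 differed by -0.49 ± 0.086 (adjusted p = 0.643). For Fundc1 the 5 nearest named genes were Tgoln1 (0.990), Apeh (0.984), Poglut1 (0.981), Tcf12 (0.976) and Htr2c (0.976), after passing over 1 predicted gene. Each r runs over the same 12 arrays, with their spread and genotypes, so these are descriptions of likeness, ranked over 19248 genes, with no test.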

How the data were processed

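The values were deposited by the authors as log2 intensities per probe set, summarised with RMA, per the submitters' processing notes. RMA's version and settings are not given in the sources used, and its between-array step would hide a shift shared by most genes. Per the labels' protocols 100 ng of RNA was labelled per sample, and the array medians over probe sets were 7.70 to 7.73. Arrays have no read depth, so 3 mice per group limit the precision. In the platform annotation, 1 gene symbol stood beside 19942 of 24055 probe sets, several beside 1225, and 2888 had no entry. The brightest probe set stood for each of 470 genes that had more than 1. All sample columns were used (0 left out).

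A mean per group was fitted to 12 arrays with limma 3.58.1 in R 4.3.3 (eBayes without trend, 8 residual and 4.14 prior degrees of freedom). Benjamini-Hochberg adjustment ran over 19248 genes within a contrast, and the calls used a threshold of 0.05. The fit was tested on simulated data. The text names all members, up to 4 called genes of smallest p and the brightest uncalled gene of each pathway list (ATG8 family, further receptors, regulators), and the 5 genes most like Sqstm1 and Fundc1 by Pearson r. Predicted genes were not named. The members and lists were chosen with earlier results of these data known. Within groups, arrays correlated at 0.988 to 0.995, and no 2 arrays of a group held equal values (SD of the difference 0.172 to 0.271). Alternatives were a replicate block, array spread (the SD over genes) as a covariate, equal array medians, quantile normalization again, dim genes left out, averaged or separate probe sets, array weights, trended or robust variances, a fit on 2 groups alone, and each mouse left out. Leaving out 3 arrays of small spread was chosen after seeing the data.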

Additional observations from a re-analysis of the deposited data

How the results depend on the processing

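Loss of Sqstm1 passed the threshold in each alternative run, with log2 differences of -2.61 to -2.36 in HD mice, -2.81 to -2.73 in non-transgenic mice and -2.69 to -2.57 for the mean. The count of other receptors called for p62 loss stayed at 0 in each alternative, and so did the p62 by HD difference. The HD counts were less steady. For the HD transgene without p62, 2 of 8 receptors were called, and the count was 1 with the replicate block, 1 with equal array medians, 4 without the dimmest 50% of genes, 0 with only the 2 groups compared, 0 with array spread as a covariate, 1 without the 3 arrays of smallest spread, and 0 to 3 with a mouse left out. For the HD transgene with p62 the count of 0 became 1 without the dimmest 50%, 1 with a variance trend and 1 with array weights. For the mean HD transgene the count of 5 became 3 with the replicate block, 3 with quantile normalization again, 2 with array spread as a covariate, 6 with a variance trend, 7 with array weights, and 2 to 5 with a mouse left out. Calls over all genes ranged from 843 to 6663 (HD without p62, 4172), 398 to 4625 (HD with p62, 1366), 2541 to 9464 (mean HD, 6728), 1 to 2 (p62 loss in HD mice, 1), 1 to 4 (p62 loss in non-transgenic mice, 1), 1 to 2 (mean p62 loss, 2) and 0 to 1 (p62 by HD difference, 0). Whether the replicate numbers pair the mice was not settled, because deviations from means of 3 mice are not independent. Same-numbered arrays correlated at -0.34 to 0.21 in their deviations from group means (4 of 18 pairs above 0.1). By these deviations, 2 of 12 arrays were closest to their own number. Of 1548 gene, contrast and alternative combinations 84 differed in sign, each past the threshold in neither fit. The cause of these shifts was not tested.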
